A study of Homo sapiens with 12 samples.

Results

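The genes of the proteasome were followed through RNA sequencing of the multiple myeloma lines MM1S and MM1R, each left untreated or exposed to withaferin A (WA). Members were all entries of the count table whose symbol is PSM, a letter from A to G and a number. PSMB8 and PSMB9, interferon-inducible catalytic subunits, were left out. This gave 46 genes of the 43735 entries. They comprise 8 genes of the alpha ring and 9 of the beta ring of the 20S core, 6 ATPase and 11 non-ATPase subunits of the 19S particle, 3 chaperones of 19S assembly, 4 chaperones of 20S assembly, 4 activator genes and 1 inhibitor gene.

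MM1S is the glucocorticoid-sensitive and MM1R the glucocorticoid-resistant member of a pair of human plasma cell tumour lines. WA is a steroidal lactone of the plant Withania somnifera that reacts with cysteines of proteins. There were 3 cultures in each of 4 groups, namely untreated MM1S, MM1S with WA, untreated MM1R and MM1R with WA. According to the labels, WA was given at 1 µM for 3 h, and the untreated cultures carry no note of a vehicle. The cultures of MM1S had passage numbers 16, 22 and 23 and those of MM1R had 4, 6 and 7, in both arms of each line. Each genotype is represented by a single line, so that glucocorticoid resistance, line and passage range cannot be told apart. P-values therefore cover the spread between cultures of these lines only.

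The reads assigned to genes numbered 17625110 to 19368343 per culture. All 9 plasma cell markers on a hand-written list had at least 10 reads in every culture, and their summed level lay between 9948 and 18686 CPM (counts scaled to a common library size, per 1e6 reads). The 3 B cell markers had at most 3 reads. Among the markers of other cell types, CD3E had 63 to 211 reads, COL1A1 9 to 294, PDGFRB 27 to 57 and EPCAM 5 to 21, and each of the others had at most 13. The summed level of the stromal list was 2.19 to 4.69 CPM in untreated cultures and 3.74 to 20.4 CPM with WA. This rise came from COL1A1 alone. Its mean was 0.718 CPM untreated and 4.95 CPM with WA in MM1S, and 1.93 and 10.7 CPM in MM1R. PDGFRB had a lower mean with WA in both lines and lay between 1.44 and 2.95 CPM in all cultures. COL1A2 had 0 reads in every culture. The summed level of the T cell list was 3.83 to 11.9 CPM in all cultures. The part of the markers of other cell types in the results was not tested.

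The proteasome is the cell's main protease for proteins tagged with ubiquitin. The 20S core is a barrel of alpha and beta rings, in which PSMB5, PSMB6 and PSMB7 carry the chymotrypsin-like, caspase-like and trypsin-like activities. The 19S particle recognizes, unfolds and feeds in the substrate with its ring of ATPases. Dedicated chaperones put the complexes together: PSMG1 pairs with PSMG2 and PSMG3 pairs with PSMG4 to build the alpha ring, while PSMD5, PSMD9 and PSMD10 bind the ATPases of the nascent 19S base. Plasma cells secrete large amounts of immunoglobulin and depend strongly on the proteasome, and PSMB5 is the target of the myeloma drug bortezomib.

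After low counts had been filtered out with edgeR, 41 of the 46 genes remained and entered the test with all other genes (14085 in all). The 5 genes that did not pass were PSMA8 and PSMB11, the germ cell and thymus variants of a core subunit, and PSMB3, PSMC4 and PSME1. PSMA8 had at most 2 reads in any culture and PSMB11 had 0. PSMB3 and PSMC4, which are constitutive subunits of the core and of the ATPase ring, had at most 1 read per culture, and PSME1, a subunit of the 11S activator, had 0. PSME2, the partner of PSME1, had 4 to 17 reads and passed the filter only narrowly. These 4 low entries, PSMB3, PSMC4, PSME1 and PSME2, were the members for which the table holds a further entry with a number after the symbol, and those numbered entries had 0 reads. Over the whole table, 80.4% of 2363 symbols with such a further entry had at most 3 reads in every culture, compared with 51.7% of 36657 symbols without one. The values of these genes therefore describe the table and not necessarily the cells, and how the counting treated them was not tested. The other 42 members had a median of 2721 reads in their highest culture.

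Levels per length of transcript differed widely between the 40 well-measured genes. In untreated MM1S they ranged from 7.68 CPM per kb for PSMD9, a chaperone of the 19S base, to 425 CPM per kb for PSMB4, a non-catalytic beta subunit, with a median of 77.7. In untreated MM1R the range was 7.76 (PSMC1) to 475 (PSMB4), with a median of 76.1. Subunits that are present in equal copies in the finished particle thus did not have equal levels on this scale. In the alpha ring, the level per kb in untreated MM1S ran from 20.04 for PSMA5 to 246 for PSMA1. The annotated length widened this spread, as PSMA5 had 76.5 CPM over 3815 bases and PSMA1 294 CPM over 1195 bases. Which transcripts the cells made was not tested. In the beta ring, PSMB5 had the lowest level per kb in both lines, with 50.4 in MM1S and 62.1 in MM1R, against 201 and 239 for PSMB6 and 82.9 and 98.5 for PSMB7. The assembly chaperones lay at the lower end, with medians of 40.4 (20S) and 20.7 (19S) in untreated MM1S, compared with 118 for the alpha ring and 119 for the beta ring. These levels use 1 annotated transcript per gene, and PSMC1 has many processed copies in the genome, so that its level is uncertain.

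**Figure D1:**
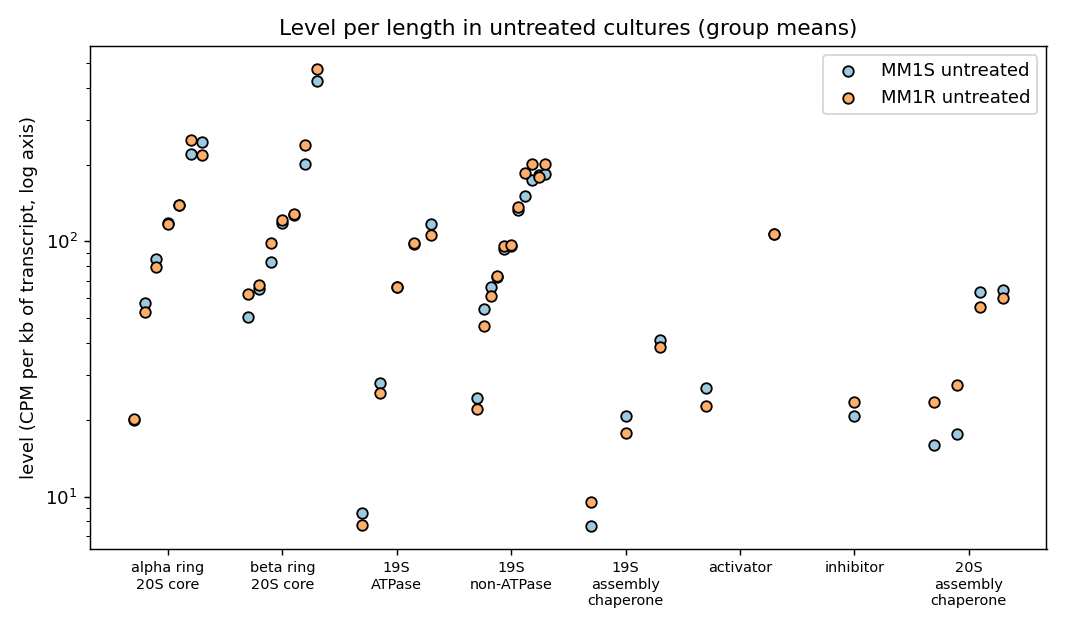
Level of 40 tested proteasome genes (PSME2 left out) in untreated MM1S and MM1R, as the mean of 3 cultures in CPM per kb of transcript on a log axis, ordered within each role class by the level in MM1S. PSMB4 was the highest gene at 425 and 475 CPM per kb, and the assembly chaperones lay below the medians of both rings.

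The first question was whether exposure to WA changed the amount of proteasome mRNA. The level summed over the 46 genes was 6371, 6641 and 6903 CPM in untreated MM1S (passages 16, 22 and 23) and 5680, 6391 and 6695 CPM with WA. It was 5614, 6718 and 8016 CPM in untreated MM1R (passages 4, 6 and 7) and 5160, 6282 and 6540 CPM with WA. The WA culture lay below the untreated culture of the same passage in each of the 6 pairs, but the groups overlapped in both lines. The group means were 6638 ± 266 and 6255 ± 521 CPM in MM1S and 6782 ± 1203 and 5994 ± 734 CPM in MM1R (SD, n = 3), a log2 ratio of -0.09 in MM1S and -0.18 in MM1R. The ratio in MM1R was -0.04 without untreated passage 7, -0.08 without the WA culture of passage 4, -0.30 without untreated passage 4 and -0.11 without both cultures of passage 7. In MM1S it was -0.02 without the WA culture of passage 16, -0.06 without untreated passage 23, -0.14 without the WA culture of passage 23 and -0.05 without both cultures of passage 16. As a share of all counted reads, the genes made up 0.688% ± 0.028 and 0.622% ± 0.040 in MM1S and 0.672% ± 0.095 and 0.580% ± 0.040 in MM1R. RNA was taken from whole cultures, in which fewer cells of a kind and less RNA per cell cannot be told apart, and the CPM scale gives shares of the mRNA and not amounts per cell.

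**Figure D2:**
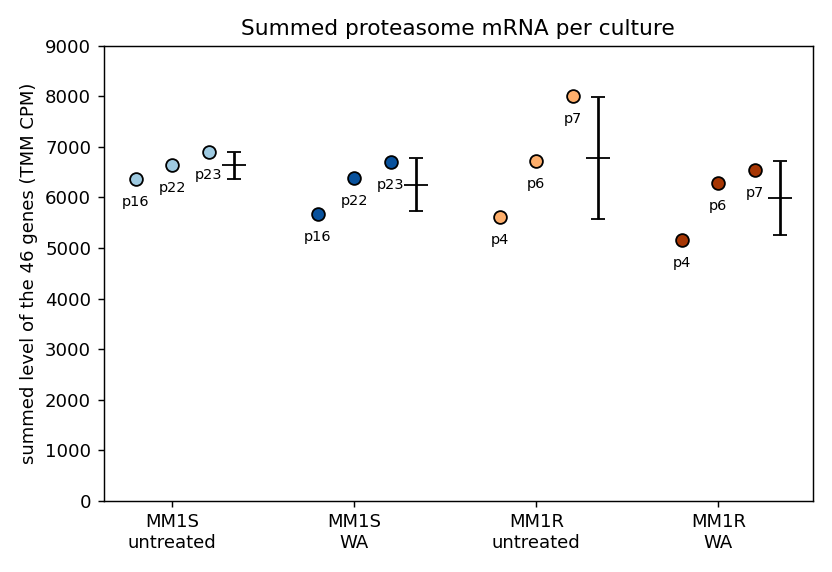
Summed level of the 46 proteasome genes in each culture in TMM-scaled CPM, with the passage number under each point and the mean and SD of 3 cultures beside the points. Each WA culture lies below the untreated culture of its passage, and untreated MM1R passage 7 is the highest at 8016 CPM.

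Untreated cultures of MM1R differed from each other by more than the median effect of WA. Among untreated MM1R cultures, 40 of the 41 tested genes were higher in passage 7 than in passage 4, with a median ratio of 1.44. In the same cultures, 53.8% of the 7627 tested genes in the CPM range of these genes (15.5 to 498 CPM) were higher, with a median log2 difference of 0.04 against 0.52 for the proteasome genes. Between the WA cultures of the same passages, 38 of 41 genes were higher in passage 7, with a median ratio of 1.26. Untreated MM1S varied less, with a median ratio of 1.09 between passages 23 and 16 (32 of 41 genes higher). Between the WA cultures of these MM1S passages, 38 of 41 genes were higher in passage 23, with a median ratio of 1.20. In that pair 61.2% of the genes of similar level were higher. In untreated MM1R the median ratio was 1.18 between passages 7 and 6 and 1.20 between passages 6 and 4, with 40 of 41 genes higher in each. Between MM1R passages 6 and 4 with WA it was 1.21 (38 of 41 higher, against 69.1% of the genes of similar level). Between MM1S passages 22 and 16 it was 1.13 with WA (32 of 41 higher) and 1.06 untreated (29 of 41). The ratio was 1.03 between MM1R passages 7 and 6 with WA (31 of 41 higher). Between MM1S passages 23 and 22 it was 1.04 untreated (29 of 41 higher) and 1.05 with WA (30 of 41). The proteasome genes thus moved together between some cultures and less so between others.

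Across genes the WA effect was small and mostly downward. Averaged over both lines, the log2 fold change was below 0 for 37 of 41 genes with a median of -0.16, while 48.3% of all 14085 tested genes were below 0 with a median of 0.01. Among the 7627 genes of similar level, 56.7% were below 0 with a median of -0.04. In MM1R alone 39 genes were below 0 (median -0.17), against 58.2% of the genes of similar level (median -0.05). Only 24 were below 0 when untreated MM1R passage 7 was left out (median -0.04). The share over other genes is not given for that fit. In MM1S 34 genes were below 0 (median -0.10), against 54.5% of the genes of similar level (median -0.03). The median of the proteasome genes was -0.03 without the WA culture of passage 16. Aside from PSME2 and PSMD10, the highest upper limit of a 95% interval was 0.25 on the log2 scale (PSMC1).

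Few single proteasome genes passed the test. With edgeR's quasi-likelihood test and Benjamini-Hochberg adjustment at 0.05, 1 proteasome gene was called in MM1R, where 14% of all tested genes were called (6.46% lower), and 0 in MM1S, where 10.5% were. At an unadjusted p under 0.05 there were 8 genes in MM1R (19.5%, against 28.4% of all tested genes) and 4 in MM1S (9.76%, against 24.9%). DESeq2 called 3 in MM1R, where it called 17.6% of all tested genes, and 0 in MM1S, where it called 14%. For the effect averaged over both lines, 6 of the 41 genes (14.6%) were called against 28.5% of all tested genes. Of these, 5 were lower (12.2%, against 13.4% of all tested genes) and 1 was higher (against 15.1%). The interaction of line and WA asks whether MM1R and MM1S responded differently. It gave 0 calls among the proteasome genes and 0% over all genes, and 0 proteasome genes by DESeq2. At an unadjusted p under 0.05 there were 0 proteasome genes, against 0.689% of all tested genes, so that this count does not set them apart. The largest difference for a named gene other than PSME2 was that of PSMG3 (0.22, 95% interval -0.20 to 0.63) and the interval spans both 0 and a difference larger than any averaged effect of WA.

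**Figure D3:**
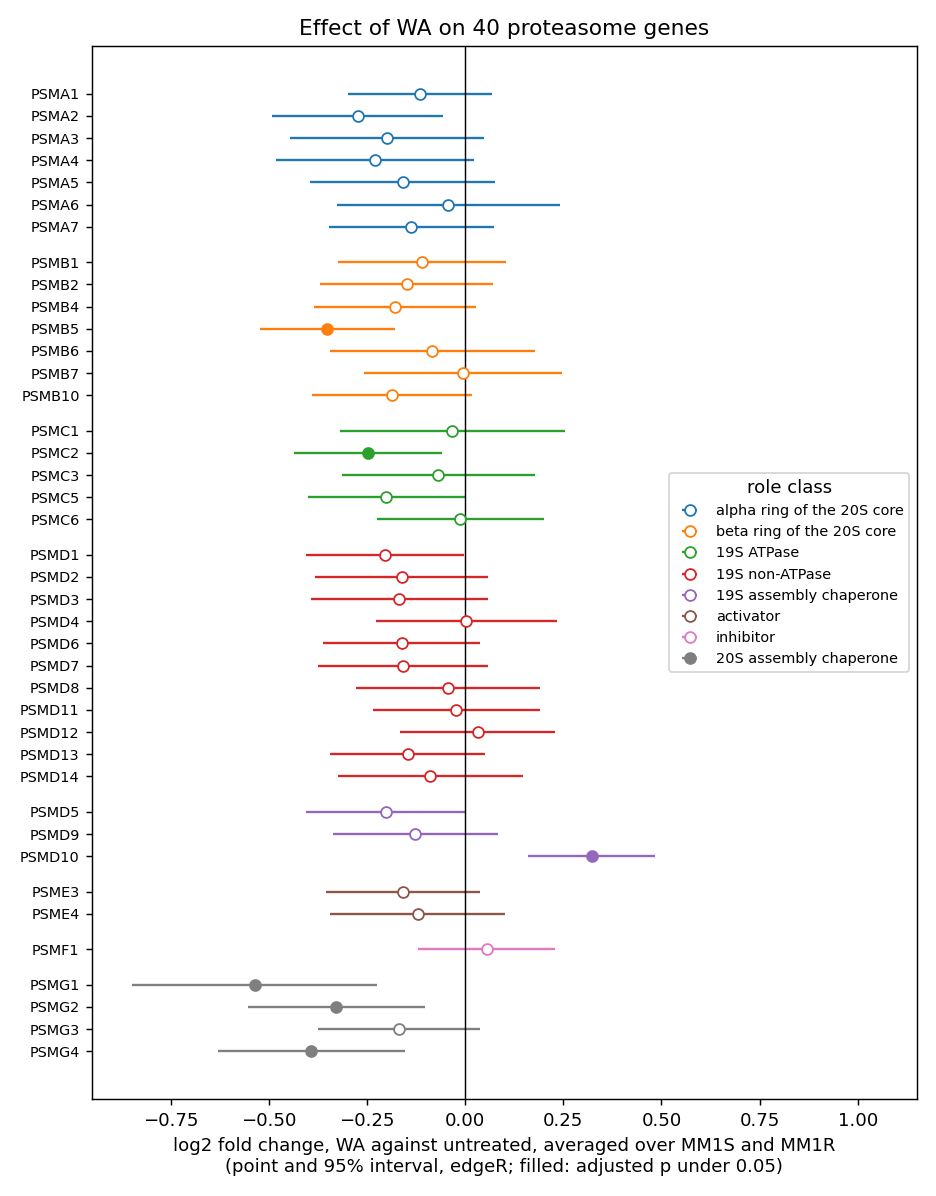
Log2 fold change of WA against untreated cultures, averaged over MM1S and MM1R, for 40 tested proteasome genes grouped by role (PSME2 left out), with 95% intervals from edgeR over 12 libraries. Filled points are the 6 genes with an adjusted p under 0.05, of which PSMD10 alone lies above 0.

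The passage number pairs each WA culture with an untreated culture, and a fit with passage as replicate block raised the counts. It called 9 proteasome genes in MM1R (8 lower), 4 in MM1S (3 lower) and 18 for the averaged effect (17 lower). In MM1R these were PSMA2, PSMB5, PSMC2, PSMD1, PSMD3, PSMG1, PSMG2 and PSMG4, all lower, and PSMD10, higher. In MM1S PSMB5, PSMG1 and PSMG4 were lower and PSMD10 higher. For the averaged effect PSMA2, PSMA3, PSMA4, PSMB2, PSMB4, PSMB5, PSMB10, PSMC2, PSMC5, PSMD1, PSMD2, PSMD3, PSMD6, PSMD7, PSMG1, PSMG2 and PSMG4 were lower. In this fit 29.1%, 24.1% and 42.8% of all tested genes were called, and 14.4%, 11.7% and 20.8% were lower. The called share of proteasome genes for the averaged effect (43.9%) was thus near that of all genes (42.8%), while its direction was uneven, with 41.5% called lower against 20.8% of all tested genes and 29.7% of those in the same CPM range. By plain counting, 18 of 41 genes (43.9%) were lower in all 6 pairs and 1 was higher in all 6 pairs (2.44%), against 20% and 20% of all tested genes, or 28.3% and 19.6% of those in the same CPM range. The 18 genes were PSMA2, PSMA3, PSMA5 and PSMA7 of the alpha ring, PSMB2, PSMB4, PSMB5 and PSMB10 of the beta ring, PSMC2 and PSMC5 of the ATPases, PSMD2, PSMD3, PSMD6, PSMD7 and PSMD13 of the other 19S subunits, and PSMG1, PSMG2 and PSMG4. The median change over genes within a pair in MM1R was -0.09 at passage 4, -0.12 at passage 6 and -0.27 at passage 7, and in MM1S it was -0.19 at passage 16 and -0.05 at both passage 22 and passage 23.

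**Figure D4:**
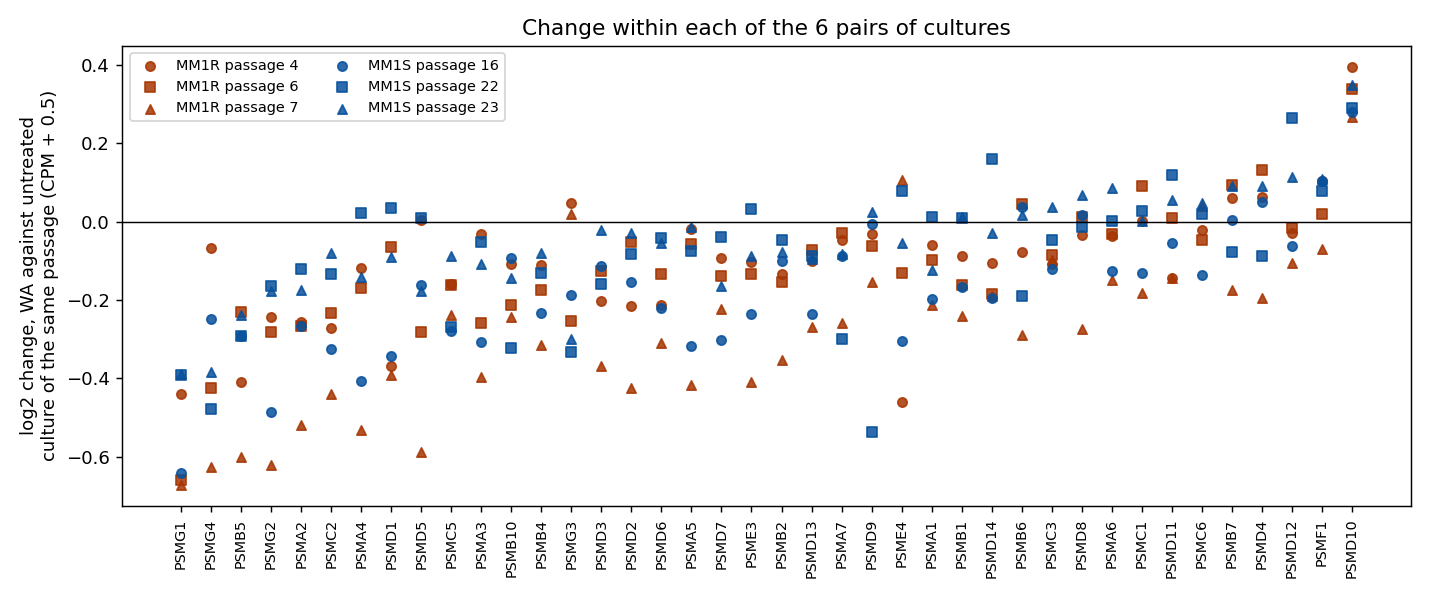
Change of each of 40 proteasome genes within the 6 pairs of cultures of the same passage, as the log2 ratio of WA to untreated on CPM with 0.5 added. Genes are ordered by the averaged effect; MM1R is drawn in brown and MM1S in blue. PSMG1 at the left was lower in all 6 pairs and PSMD10 at the right was higher in all 6.

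Among the catalytic subunits, PSMB5 fell with WA, while PSMB6 and PSMB7 did not pass the test. PSMB5 (chromosome 14, bases 23485752 to 23504439, minus strand, GRCh37) had 50.6, 54.9 and 52.5 CPM in untreated MM1S and 41.2, 44.7 and 44.4 CPM with WA. In MM1R it had 59.8, 59.1 and 75.6 CPM untreated and 44.9, 50.3 and 49.6 CPM with WA. The WA and untreated cultures did not overlap in either line. The log2 fold change was -0.42 in MM1R (SE 0.11, edgeR adjusted p = 0.0230), -0.28 in MM1S (SE 0.11, edgeR adjusted p = 0.139) and -0.35 averaged (SE 0.08, edgeR adjusted p = 0.00480), a decrease to 0.784 of the untreated level. The call in MM1R was lost without untreated passage 7 (-0.30, edgeR adjusted p = 0.0919) or without the WA culture of passage 4 (edgeR adjusted p = 0.0898), 6 (0.0511) or 7 (0.0657), whereas the averaged call held with any 1 library left out. With passage as replicate block, PSMB5 was also called in MM1S (-0.28, edgeR adjusted p = 0.0464).

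The other catalytic subunits gave averaged log2 fold changes close to 0. For PSMB6 the change was -0.08 (95% interval -0.34 to 0.18) and for PSMB7 it was -0.01 (95% interval -0.26 to 0.25). PSMB7 had 76.0, 80.3 and 88.5 CPM in untreated MM1S and 76.3, 76.1 and 94.4 CPM with WA, and the groups overlapped in both lines. PSMB10, the interferon-inducible counterpart of PSMB7, was at -0.19 (edgeR adjusted p = 0.163), and passed with the replicate block (edgeR adjusted p = 0.0181).

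**Figure D5:**
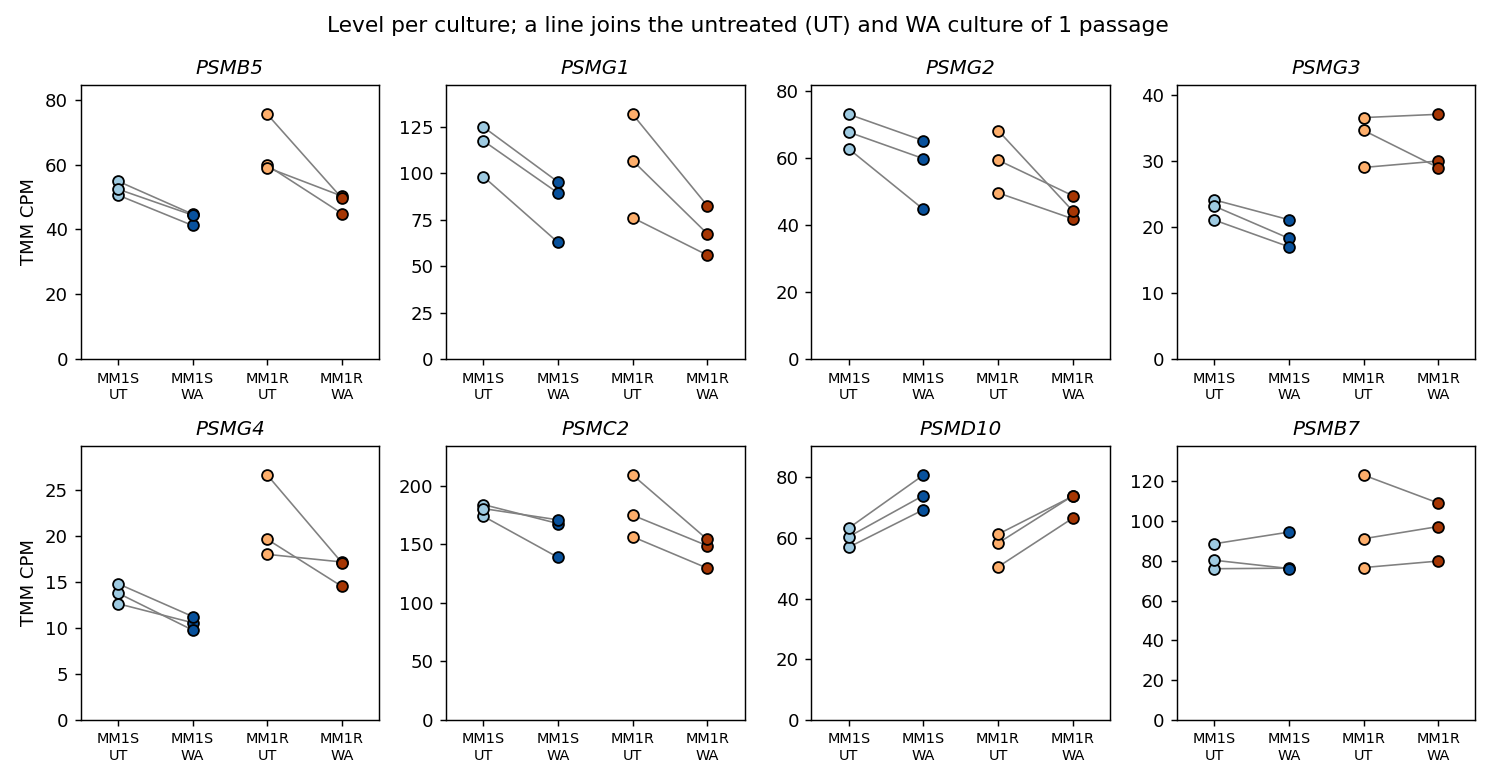
TMM-scaled CPM of 8 proteasome genes in each of 12 cultures, with untreated (UT) and WA cultures of 1 passage joined by a line and each axis starting at 0. PSMB5, PSMG1, PSMG2, PSMG4 and PSMC2 are lower with WA in all 6 pairs, PSMD10 is higher in all 6, PSMG3 and PSMG4 are higher in MM1R than in MM1S, and PSMB7 shows no common direction.

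Of the 4 chaperones of 20S assembly, 3 were called for the averaged effect, against 28.5% of all tested genes. Whether this small class differs from other genes was not tested. PSMG1 (chromosome 21, bases 40546695 to 40555414, minus strand) had 98.3, 118 and 125 CPM in untreated MM1S and 62.8, 89.4 and 95.4 CPM with WA. The MM1R values were 76.1, 107 and 132 CPM untreated and 56.0, 67.5 and 82.6 CPM with WA. The groups were separate in MM1S and overlapped in MM1R, where untreated passage 4 lay below the WA culture of passage 7. The averaged log2 fold change was -0.54 (SE 0.15, edgeR adjusted p = 0.0135), the largest in size of the tested proteasome genes, and the call held with any 1 library left out. Within the lines it was -0.61 in MM1R (edgeR adjusted p = 0.0631) and -0.46 in MM1S (edgeR adjusted p = 0.178), and both passed with the replicate block (edgeR adjusted p = 0.000505 and 0.00241).

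PSMG2, the partner of PSMG1 (chromosome 18, bases 12658042 to 12728944, plus strand), had 62.7, 73.0 and 67.7 CPM in untreated MM1S and 44.6, 65.1 and 59.8 CPM with WA. In MM1R it had 49.6, 59.3 and 68.2 CPM untreated and 41.8, 48.7 and 44.2 CPM with WA. Here the groups were separate in MM1R and overlapped in MM1S. The averaged log2 fold change was -0.33 (SE 0.11, edgeR adjusted p = 0.0313), and the call was lost when any 1 of 7 libraries was left out, with adjusted p-values of up to 0.0798 (without untreated MM1S passage 22). The other libraries concerned were untreated MM1S passage 23, MM1S passage 16 with WA, untreated MM1R passages 6 and 7, and MM1R passages 4 and 7 with WA.

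PSMG3 and PSMG4, the second pair of 20S chaperones, differed between the cell lines. PSMG4 (chromosome 6, bases 3231637 to 3303607, plus strand) had 12.6, 13.8 and 14.8 CPM in untreated MM1S and 18.01, 19.6 and 26.6 CPM in untreated MM1R. With WA it had 10.6, 9.77 and 11.2 CPM in MM1S and 17.2, 14.5 and 17.1 CPM in MM1R. The lines did not overlap in either condition, nor did WA and untreated cultures within a line. The averaged effect of WA was -0.39 (SE 0.11, edgeR adjusted p = 0.0170), which held with any 1 library left out but not without both cultures of MM1R passage 7 (-0.31, edgeR adjusted p = 0.0567).

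PSMG3 (chromosome 7, bases 1606968 to 1610641, minus strand) had 24.1, 23.2 and 21.1 CPM in untreated MM1S and 29.0, 34.7 and 36.6 CPM in untreated MM1R. With WA it had 21.1, 18.3 and 17.0 CPM in MM1S and 30.0, 29.0 and 37.1 CPM in MM1R. All 6 MM1R cultures lay above all 6 MM1S cultures. The averaged effect of WA on PSMG3 was -0.17 (95% interval -0.38 to 0.04, edgeR adjusted p = 0.213).

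Untreated MM1R and MM1S were compared to find genes that differ between these lines. PSMG3 and PSMG4 were the 2 proteasome genes called there. Glucocorticoid resistance, line and passage range cannot be told apart in this comparison. The log2 fold change of MM1R against MM1S was 0.55 for PSMG3 (SE 0.14, edgeR adjusted p = 0.0181) and 0.64 for PSMG4 (SE 0.16, edgeR adjusted p = 0.0171). Over all tested genes 11.9% were called (6.44% higher), against 2 of 41 proteasome genes. Under WA the same 2 genes were called (PSMG3 0.77, SE 0.14, edgeR adjusted p = 0.00252, and PSMG4 0.63, SE 0.16, edgeR adjusted p = 0.0205), where 12% of all genes were called (6.34% higher). The WA comparison used other cultures of the same lines and passages. Cultures of a passage shared deviations from the group means, and both comparisons came from 1 fit. The calls under WA are therefore not independent of those in untreated cultures. The median over the 41 genes was 0.01 in untreated cultures (18 below 0) and -0.10 under WA (26 below 0).

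The line difference of untreated cultures rested on few cultures. The call for PSMG4 was lost without untreated MM1S passage 22 (edgeR adjusted p = 0.0654) or untreated MM1R passage 7 (0.45, edgeR adjusted p = 0.0764). That for PSMG3 was lost without untreated MM1S passage 22 or 23 (edgeR adjusted p = 0.0627 and 0.0891) or untreated MM1R passage 6 or 7 (edgeR adjusted p = 0.0788 and 0.0696). Under WA, PSMG3 held with any 1 library left out, and PSMG4 was lost without MM1S passage 22 (edgeR adjusted p = 0.0908) or MM1R passage 4 or 7 (edgeR adjusted p = 0.0689 and 0.0556).

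Some genes that overlap the 20S chaperones in the annotation were called between the lines and others were not. In GENCODE on GRCh37, exons of PSMG4 share up to 1320 bases with SLC22A23 and up to 174 bases with TUBB2B, both on the opposite strand. SLC22A23 (80 to 232 reads) was higher in MM1R by 0.75 untreated (edgeR adjusted p = 0.0445) and 1.06 under WA (edgeR adjusted p = 0.00808). TUBB2B, a beta tubulin (70 to 254 reads), was higher in MM1R by 0.79 (edgeR adjusted p = 0.0468) and 1.02 (edgeR adjusted p = 0.0175). TUBB2B also fell with WA on average (-0.62, edgeR adjusted p = 0.0155), while SLC22A23 was at 0.00 (edgeR adjusted p = 0.993). PSMG3 shares up to 60 bases with its antisense RNA PSMG3-AS1 (21 to 56 reads), which was higher in MM1R by 0.60 untreated (edgeR adjusted p = 0.201) and 0.98 under WA (edgeR adjusted p = 0.0414), with an averaged effect of WA of 0.01 (edgeR adjusted p = 0.990). PSMG2 shares up to 292 bases with CEP76 (266 to 434 reads) and up to 65 bases with SPIRE1 (25 to 45 reads). Their averaged effects of WA were 0.12 (edgeR adjusted p = 0.474) and 0.14 (edgeR adjusted p = 0.619), neither past the threshold. Whether reads were assigned by strand is not given in the sources used here, so that reads of PSMG2, PSMG3, PSMG4 and these neighbours cannot be told apart in the shared bases. These neighbours were looked up after the values of the chaperones had been seen, and no library was left out for them.

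Among the 19S genes, PSMC2 and PSMD10 were called for the averaged effect. PSMC2, an ATPase of the base (chromosome 7, bases 102969017 to 103010793, plus strand), had 174, 184 and 180 CPM in untreated MM1S and 139, 168 and 171 CPM with WA. In MM1R it had 156, 175 and 209 CPM untreated and 129, 149 and 154 CPM with WA. The groups were separate in both lines, narrowly so in each. The averaged log2 fold change was -0.25 (SE 0.09, edgeR adjusted p = 0.0492), just inside the limit, and the call was lost in 11 of the 12 fits that left out 1 library (edgeR adjusted p up to 0.118, without the WA culture of MM1R passage 4). It held in the remaining fit, without untreated MM1R passage 4, and with the replicate block (edgeR adjusted p = 0.00415). Exons of PSMC2 share up to 112 bases with PMPCB on the same strand (1544 to 1909 reads). They share up to 197 bases with SLC26A5 on the opposite strand (3 to 19 reads). The averaged effects of WA on these neighbours were -0.05 (edgeR adjusted p = 0.629) and 0.65 (edgeR adjusted p = 0.266). How reads in the shared bases were assigned is not given in the sources used here.

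PSMD10, the chaperone also known as gankyrin (X chromosome, bases 107327437 to 107334779, minus strand), was the proteasome gene that rose. It had 56.9, 60.4 and 63.2 CPM in untreated MM1S and 69.3, 74.0 and 80.7 CPM with WA. The MM1R values were 50.4, 58.3 and 61.2 CPM untreated and 66.5, 73.9 and 73.7 CPM with WA. All WA cultures lay above all untreated cultures, over both lines together. The averaged log2 fold change was 0.32 (SE 0.08, edgeR adjusted p = 0.00582), or 1.25-fold, and the call held with any 1 library left out. Within the lines the change was 0.33 in MM1R (edgeR adjusted p = 0.0526) and 0.31 in MM1S (edgeR adjusted p = 0.0798), and both passed with the replicate block (edgeR adjusted p = 0.00857 and 0.0151). The other chaperones of the 19S base, PSMD5 and PSMD9, were at -0.20 (edgeR adjusted p = 0.130) and -0.13 (edgeR adjusted p = 0.370).

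The 11 non-ATPase subunits gave 0 calls for the averaged effect by edgeR, against 28.5% of all tested genes. Of these subunits, 1 was at an unadjusted p under 0.05 (9.09%, against 39.1% of all tested genes). They ranged from -0.20 for PSMD1, the scaffold of the 19S base (95% interval -0.40 to 0.00), to 0.03 for PSMD12, a lid subunit (95% interval -0.17 to 0.23). With the replicate block PSMD1 was called (edgeR adjusted p = 0.0261), as were PSMD2, PSMD3, PSMD6 and PSMD7. In that fit 42.8% of all tested genes were called. In the alpha ring all 7 tested genes were below 0, from -0.27 for PSMA2 (95% interval -0.49 to -0.06, edgeR adjusted p = 0.0584) to -0.04 for PSMA6 (95% interval -0.33 to 0.24). PSMA2 passed with the replicate block (edgeR adjusted p = 0.00236). Of the regulators, PSME4, an activator that caps the core in place of the 19S particle, was at -0.12 (95% interval -0.34 to 0.10), and PSMF1, an inhibitor of the core, at 0.05 (95% interval -0.12 to 0.23).

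Promoter sequences from RefSeq (GRCh38.p14) were matched by symbol for 40 of the 46 genes, as the 250 bases before the annotated start. PSMA7, PSMB1, PSMB6, PSMB7, PSMD4 and PSMG3 were not matched. Those of PSMB5, PSMG1, PSMG2, PSMG4, PSMC2 and PSMD10 are printed because these are the 6 genes called for the averaged effect of WA. Each reads 5′ to 3′ on the strand of the gene. Capitals mark matches to a CCAAT box (CCAAT, or ATTGG on the other strand) or to an antioxidant response element core (TGACNNNGC), the short sequence bound by NRF1 and NRF2 with small MAF proteins. PSMB5 lies at chr14:23035221-23035470 on the minus strand, PSMG1 at chr21:39183452-39183701 on the minus strand, PSMG2 at chr18:12658488-12658737 on the plus strand, PSMG4 at chr6:3258697-3258946 on the plus strand, PSMC2 at chr7:103347393-103347642 on the plus strand and PSMD10 at chrX:108091543-108091792 on the minus strand.
PSMB5: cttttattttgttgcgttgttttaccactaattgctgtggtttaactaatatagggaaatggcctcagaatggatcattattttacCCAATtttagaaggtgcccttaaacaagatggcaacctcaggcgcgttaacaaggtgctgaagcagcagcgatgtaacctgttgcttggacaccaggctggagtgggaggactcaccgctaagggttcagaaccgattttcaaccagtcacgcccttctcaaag
PSMG1: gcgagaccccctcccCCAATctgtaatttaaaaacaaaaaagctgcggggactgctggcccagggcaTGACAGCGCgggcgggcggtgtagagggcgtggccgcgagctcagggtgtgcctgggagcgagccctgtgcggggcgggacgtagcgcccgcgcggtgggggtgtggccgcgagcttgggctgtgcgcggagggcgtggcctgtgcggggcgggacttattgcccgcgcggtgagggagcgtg
PSMG2: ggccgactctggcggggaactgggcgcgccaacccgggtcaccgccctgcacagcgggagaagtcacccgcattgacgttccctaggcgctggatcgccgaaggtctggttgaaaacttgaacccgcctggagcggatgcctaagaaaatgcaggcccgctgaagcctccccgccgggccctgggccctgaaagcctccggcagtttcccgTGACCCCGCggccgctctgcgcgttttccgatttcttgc
PSMG4: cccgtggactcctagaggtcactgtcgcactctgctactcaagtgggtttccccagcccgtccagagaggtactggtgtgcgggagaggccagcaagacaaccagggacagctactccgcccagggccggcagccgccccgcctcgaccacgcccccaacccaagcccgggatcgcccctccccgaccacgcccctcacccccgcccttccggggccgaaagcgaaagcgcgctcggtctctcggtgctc
PSMC2: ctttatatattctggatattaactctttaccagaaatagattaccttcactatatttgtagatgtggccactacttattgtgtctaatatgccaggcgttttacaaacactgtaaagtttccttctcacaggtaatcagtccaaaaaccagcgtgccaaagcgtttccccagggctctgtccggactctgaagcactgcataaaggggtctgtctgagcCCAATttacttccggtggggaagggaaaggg
PSMD10: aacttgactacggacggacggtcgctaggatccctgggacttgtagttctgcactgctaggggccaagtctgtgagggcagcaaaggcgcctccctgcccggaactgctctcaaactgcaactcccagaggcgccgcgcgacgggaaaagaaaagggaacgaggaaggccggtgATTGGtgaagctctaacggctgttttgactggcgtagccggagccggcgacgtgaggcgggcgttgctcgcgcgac

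The matches in these windows began 164 bases before the start for the CCAAT box of PSMB5 and 76 bases before it for the reversed CCAAT box of PSMD10. In PSMG1 a CCAAT box began 235 bases and the antioxidant response core 183 bases before the start. In PSMG2 the antioxidant response core began 39 bases before the start, and in PSMC2 a CCAAT box began 31 bases before it. The window of PSMG4 held no match to either. Over both strands, 10 of 40 proteasome promoters (25%) held TGACNNNGC, against 11% of 27305 promoters of the same length. The low entries PSMB3, PSME1 and PSME2 were among these 10. A CCAAT box was found in 17 of 40 (42.5%, against 33%) and an E-box (CACGTG) in 3 of 40 (7.5%, against 6.49%). A heat shock element core (GAANNTTC) was found in 0 of 40 (against 5.85%) and an amino acid response element (TGATGNAA) in 0 of 40 (against 3.19%). Members that fell and members that did not pass the main test both held matches: the promoters of PSMD3, PSMD12, PSMD5, PSMD9 and PSME4 also contained TGACNNNGC. Of these, PSMD3 was called lower for the averaged effect with the replicate block (edgeR adjusted p = 0.0259). A match in these letters is a description and was not tested as a binding site.

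A second list held 27 genes that regulate, assemble or feed the proteasome but lie outside the naming rule, of which 25 were tested. PSMB8 and PSMB9, on this list, had 0 reads in every culture. As for the low entries among the members, this value describes the table and not necessarily the cells. How the counting treated PSMB8 and PSMB9 was not tested. For the averaged effect of WA, 6 of 25 genes (24%) were called, close to the 28.5% of all tested genes, 4 higher and 2 lower. The transcription factor NFE2L1 (NRF1), which drives proteasome genes when proteasome activity is limiting, rose by 0.57 (SE 0.10, edgeR adjusted p = 0.00117). It had 240, 379 and 274 CPM in untreated MM1S and 402, 421 and 487 CPM with WA. The MM1R values were 275, 242 and 255 CPM untreated and 378, 376 and 411 CPM with WA. The groups were separate in both lines. DDI2 and NGLY1, which process the NFE2L1 protein, were at 0.01 (95% interval -0.19 to 0.22), and -0.04 (95% interval -0.19 to 0.11).

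The largest change on this list was that of ZFAND2A (AIRAP), a stress-induced protein that binds the 19S particle. It had 16.0, 12.8 and 15.9 CPM in untreated MM1S and 127, 75.4 and 182 CPM with WA. In MM1R it had 17.5, 21.3 and 22.3 CPM untreated and 123, 154 and 364 CPM with WA. The averaged log2 fold change was 3.25 (SE 0.27, edgeR adjusted p = 2.07e-06), or 9.48-fold. Its relative ZFAND5, an activator of the 26S particle, rose by 0.52 (edgeR adjusted p = 0.00241) and the shuttle factor UBQLN1 by 0.31 (edgeR adjusted p = 0.0112). UBQLN4, another shuttle factor, was lower (-0.51, edgeR adjusted p = 0.0108), as was SEL1L (-0.50, edgeR adjusted p = 0.0212), an adaptor of the ubiquitin ligase that clears misfolded proteins from the endoplasmic reticulum. The call of SEL1L was lost without untreated MM1S passage 22 or 23 (edgeR adjusted p = 0.0537 and 0.0543). SEL1L was also the 1 listed gene called between untreated lines (-0.81 in MM1R, edgeR adjusted p = 0.0231), a call lost without untreated MM1S passage 22 or 23 (edgeR adjusted p = 0.0926 and 0.0962) or untreated MM1R passage 6 or 7 (edgeR adjusted p = 0.0567 and 0.1000).

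The 19S subunits whose symbols lack the PSM stem were also on this list. ADRM1, a ubiquitin receptor, was at -0.23 (95% interval -0.43 to -0.03, edgeR adjusted p = 0.0862) and SEM1, the smallest subunit, at 0.00 (95% interval -0.22 to 0.23). POMP, the chaperone of beta ring maturation, was at -0.10 (95% interval -0.30 to 0.09) and AKIRIN2, which brings proteasomes into the nucleus, at 0.05 (95% interval -0.15 to 0.24). VCP, the ATPase that extracts ubiquitinated proteins, was at -0.21 (edgeR adjusted p = 0.120).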

How the data were processed

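RNA from 12 cultures, 3 in each of 4 groups, was sequenced as described above. Group, passage number (used as replicate number), dose and time were read from the sample labels. The authors deposited raw counts, the reads per gene without normalization. The submitters' notes name FastQC 0.11.5, STAR 2.7.3a, DESeq2 and hg19, while the annotation and strand setting are not given in the sources used here. Of 1013 pairs of genes at most 5 places apart whose order differs between builds, 949 followed GRCh38 and 64 followed GRCh37 in the table, so that the gene models behind the counts are not settled. Gene coordinates are those of GENCODE v44 on GRCh37, and promoter sequences those of RefSeq on GRCh38.p14. The authors' normalized table was not used.

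The main test was that of edgeR 4.0.16 in R 4.3.3 (filterByExpr with a minimum count of 10, TMM, quasi-likelihood test, all 12 libraries in 1 fit, Benjamini-Hochberg adjustment over 14085 genes), and DESeq2 1.42.0 served as the alternative. Calls used an adjusted p of 0.05. Averaged effects are the mean of the WA effects in both lines. CPM values are scaled by TMM, pair changes used CPM with 0.5 added, and intervals of fold changes are those of the fit. Reads carry no molecular identifiers, so that limits from low counts cover counting error only. Both tools were tested on simulated counts. No library was a copy of another of its group, since the chi-square of replicate counts per degree of freedom was 8.06 to 44.3. Libraries of different groups were not compared in this way.

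Members and gene lists were chosen with earlier results of these data known. Named genes are members called in a comparison, PSMB5, PSMB6 and PSMB7, the highest and lowest averaged WA effect of each role class, and up to 8 called genes of the second list. Other genes were named for their role after their values were seen. The shared passage numbers come from the labels. Deviations from the group means correlated between the WA and untreated culture of a passage (0.39, 0.18 and 0.22 for MM1R passages 4, 6 and 7, and 0.71, 0.25 and 0.44 for MM1S passages 16, 22 and 23), so that the fit with passage as replicate block was treated as paired. For MM1S passage 22 the highest correlation with another passage (0.31) exceeded that within the passage, and for MM1S passage 23 it was 0.37.

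Alternatives were DESeq2's size factors, DESeq2, no filter, at least 10 reads in every library, only the 6 libraries compared, an adjusted p of 0.01 (between lines also with a log2 fold change of 1), the replicate block, a pseudocount of 2 CPM, shares of raw counts, and each library left out. Leaving out both cultures of a passage, and any library for the summed level, was added after the data had been seen.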

Additional observations from a re-analysis of the deposited data

How the results depend on the processing

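The counts of called proteasome genes were small and moved with the setting. The called share of all tested genes moved as well. With the replicate block in edgeR it rose from 14% to 29.1% in MM1R and from 10.5% to 24.1% in MM1S. For the averaged effect it rose from 28.5% to 42.8%. With DESeq2 it was 17.6% in MM1R and 14% in MM1S. For the other settings this share is not given, so that their counts do not describe a trait of the proteasome genes. In MM1R the 1 call became 2 without a filter, 2 with at least 10 reads in every library, 3 with DESeq2, 0 at an adjusted p of 0.01, 9 with the replicate block in edgeR and 11 with it in DESeq2, and 0 to 6 with 1 library left out. It was 0 without both cultures of MM1R passage 7, 0 without those of MM1R passage 4 and 4 without those of MM1S passage 16. In MM1S the 0 calls became 1 without a filter, 1 with at least 10 reads in every library, 4 with the replicate block in edgeR and 3 with it in DESeq2, and stayed at 0 with any 1 library left out. For the averaged effect the 6 calls became 2 at an adjusted p of 0.01, 18 with the replicate block in edgeR and 21 with it in DESeq2, 4 to 10 with 1 library left out (10 without untreated MM1R passage 4), and 3 without both cultures of MM1R passage 7. The 3 were PSMB5, PSMG1 and PSMD10.

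Between untreated lines the 2 calls became 0 at an adjusted p of 0.01, 0 with a log2 fold change of 1 as well, 0 to 2 with 1 library left out and 0 without both cultures of MM1R passage 7. Under WA the 2 calls became 1 at an adjusted p of 0.01, 0 with a log2 fold change of 1 as well, 1 to 6 with 1 library left out (6 without MM1S passage 16 with WA), 1 without both cultures of MM1R passage 4 and 6 without those of MM1S passage 16. The log2 ratio of the summed level in MM1S was -0.14 as a share of raw counts and -0.14 to -0.02 with 1 library left out, and that in MM1R was -0.30 to -0.041 with 1 library left out. No called value changed sign under the alternatives run, and the causes of these moves were not tested. With 3 cultures a group, a median standard error of 0.10 for the averaged effect limits what can be seen, and 31 of 40 intervals held 0. The replicate block in edgeR kept the 6 calls on the averaged effect. Among the members named by the rule given above, it added PSMA2 (edgeR adjusted p = 0.00236) and PSMD1 (edgeR adjusted p = 0.0261).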
